A study of Arabidopsis thaliana with 4 samples.

Results

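Transcripts for nitrate reduction and for the reductant it draws on were followed through 10 genes, selected by locus identifier from the 33602 genes of the deposited table. The 8 described individually encode nitrate reductase (NIA1, NIA2), nitrite reductase (NIR1), an enzyme of siroheme synthesis (UPM1), root-type ferredoxin-NADP reductases (RFNR1, RFNR2), root ferredoxin (FD3) and a 6-phosphogluconolactonase (PGL3). All samples were Arabidopsis thaliana of the Columbia (Col) ecotype, 14 days old, raised in a hydroponic half-strength MS-type medium from which nitrogen was left out. They also shared 16 h of light and 8 h of dark, 22 °C and 2 days of cold. The 0 h group (treatment label 1/2 MS (-N)) was not treated, and the 0.5 h group had been moved for 0.5 h to that medium with 2.5 mM glutamine. Each group had 2 libraries of RNA from whole seedlings, and the comparison asks which genes respond early to glutamine. No mutant or transgene was involved, so both groups share the same genetic background and the same history without nitrogen.

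In plants nitrate is reduced to nitrite by nitrate reductase in the cytosol, with electrons from NADH. Nitrite enters the plastid, where nitrite reductase, a siroheme enzyme, reduces it to ammonium with electrons from reduced ferredoxin. In green tissue photosynthesis reduces ferredoxin, whereas in roots the oxidative pentose phosphate pathway makes NADPH and a root-type ferredoxin-NADP reductase passes its electrons to ferredoxin. The genes of this route are known in Arabidopsis for rapid induction by nitrate, and the labels list glutamine as the only addition to the medium.

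The libraries held 26069135 and 27203588 reads in genes at 0 h, and 26075046 and 20429739 at 0.5 h, as recovered from the deposited values. Levels are in RPKM (reads scaled by gene length and by library size), so they can be set beside each other between genes. Differences are log2 fold changes on the log2(RPKM + 1) scale with their limma standard error (SE), and a gene is said to have risen or fallen where the adjusted p was below 0.05. Among 18039 tested genes, 6.71% were higher and 5.11% were lower at 0.5 h by this test, and the median change was -0.03. Of the 10 genes described here, 9 rose, none fell, and PGL3 did not pass. The list was drawn up with earlier results of these data known, so its count is not independent evidence of a direction. With no minimum on the level, 33602 genes entered limma and 0 of the 10 passed (adjusted p from 0.11 for NIA2 to 0.25 for NIA1), although 9 of the 10 had an unadjusted p below 0.05 there. The series holds no samples moved to medium without glutamine, and glutamine, the transfer and the time of sampling cannot be told apart. Whether the replicates were separate cultures is not given in the labels, so the p-values measure the spread between these libraries, which may be technical. With 2 against 2 libraries an exact permutation test cannot give a two-sided p below 0.33, and calls rest on the variance that limma shares across genes.

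**Figure D1:**
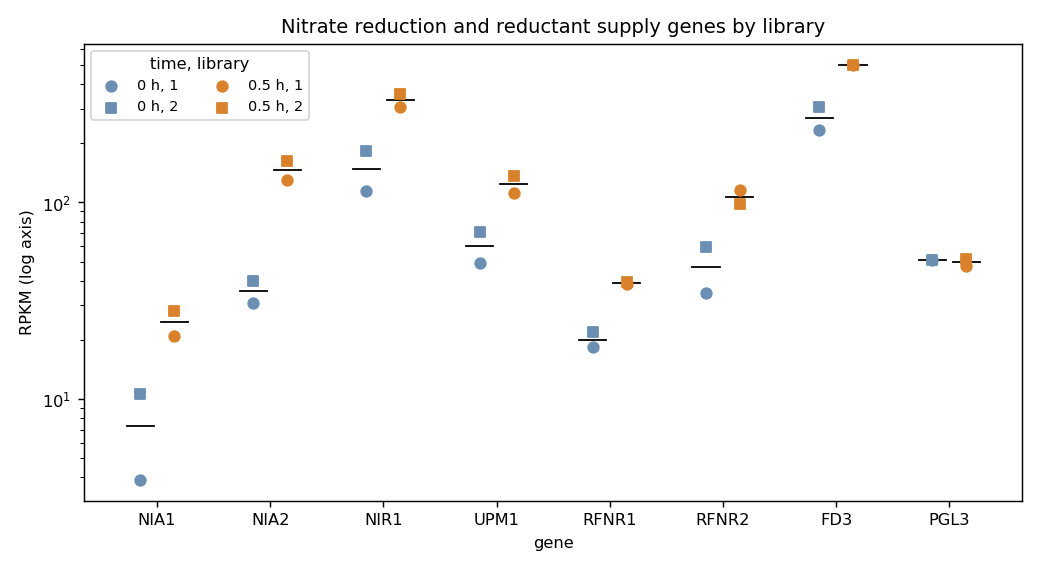
RPKM (log axis) of 8 of the 10 genes in each library, with 0 h in blue and 0.5 h in orange, circles for the 1st and squares for the 2nd library, and bars at the group means. For every gene shown except PGL3, both 0.5 h libraries lie above both 0 h libraries, with NIA2 furthest apart (39.97 RPKM at most at 0 h, 130.4 at least at 0.5 h).

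Both nitrate reductase genes rose, and NIA2 gave the largest change of the 10. NIA2 (AT1G37130), which codes for the isoform known to provide most nitrate reductase activity in Arabidopsis, stood at 30.7 and 40.0 RPKM in the 0 h libraries and at 130.4 and 161.7 RPKM in the 0.5 h libraries. The lowest 0.5 h value was 3.26 times the highest 0 h value. The mean went from 35.3 ± 6.57 to 146 ± 22.1 RPKM (SD, n = 2), a log2 difference of 2.02 ± 0.19 (SE; 95% interval 1.58 to 2.46; limma adjusted p = 0.0047), which ranked 18th among the rises of all tested genes. NIA1 (AT1G77760), the other nitrate reductase gene, stood at 3.88 and 10.7 RPKM at 0 h and at 21.0 and 28.2 RPKM at 0.5 h. Its groups did not overlap, but its 0 h libraries differed by 2.75 times, the widest such gap among the 10 genes. It rested on 283 and 869 reads at 0 h and on 1730 and 1767 at 0.5 h. The log2 difference was 1.75 ± 0.38 (SE; 95% interval 0.85 to 2.65; limma adjusted p = 0.032). That call was lost without the 2nd 0.5 h library (1.54, adjusted p = 0.12) and with robust variance estimation (adjusted p = 0.14), whereas NIA2 passed whichever library was left out.

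The balance between the nitrate reductase genes moved within its spread. NIA2 was 7.91 and 3.74 times NIA1 in the 0 h libraries and 6.21 and 5.73 times NIA1 in the 0.5 h libraries. The 0.5 h ratios lay between the 0 h ratios, and their log2 difference was 0.13, going from -0.41 without the 2nd 0 h library to 0.67 without the 1st. Summed, nitrate reductase transcripts stood at 34.6 and 50.7 RPKM at 0 h and at 151 and 190 RPKM at 0.5 h.

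NIR1 (AT2G15620), the nitrite reductase gene, carries in the reference genome the letters of the nitrate-responsive element. This element was first described in Arabidopsis in the NIR1 promoter itself, so a match there is no independent result. The letters TGACCCTTNNNNNNNNNNAAG were sought on both strands, in TAIR10.1 as distributed by RefSeq, within 1000 bases before the coding start and 2000 bases after the coding end. The search and its windows were chosen after the data were seen. The same fixed letters stand upstream of ACO1 and AT5G45430, which did not pass, and of AT1G61060 and GPX4, which were not tested. Their sites are left out, so the sites shown were picked by outcome. Those of NIR1 and of the other genes with a match that rose are given 5′ to 3′, with the fixed letters in capitals.
NIR1: TGACCCTTtacattgctcAAG
CAX2: TGACCCTTcgttgactgcAAG
BOA: TGACCCTTtaacgtggctAAG
The NIR1 site lies at chr2:6810458-6810478 on the plus strand, the strand of the gene, and begins 94 bases before the coding start, within the annotated 5′ untranslated exon, since the annotated transcript starts 157 bases before the coding start. Of 27443 genes with such a window, 7 (0.0255%) held these letters upstream, and NIR1 was the only one of the 10 genes among them. After the coding end, 20 of 27440 genes (0.0729%) held them, and 0 of the 10 genes did. With the shorter form GACNCTTNNNNNNNNNNAAG, whose matches include those of the longer one, the shares of all genes were 0.55% upstream and 1.45% downstream, and NIR1 upstream was again the only match among the 10. An absent match says only that these letters are not in the window.

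NIR1 itself stood at 114.1 and 182.6 RPKM in the 0 h libraries and at 306.3 and 356.2 RPKM in the 0.5 h libraries. The groups did not overlap, and the lowest 0.5 h value was 1.68 times the highest 0 h value, about the gap of 1.60 times between the 0 h libraries. The mean went from 148 ± 48.5 to 331 ± 35.3 RPKM (SD, n = 2), a log2 difference of 1.19 ± 0.24 (SE; limma adjusted p = 0.026). Leaving out the 1st 0 h library gave 0.85 (adjusted p = 0.057) and leaving out the 2nd 0.5 h library 1.08 (adjusted p = 0.11). NIR1 was 3.72 and 4.57 times NIA2 at 0 h and 2.35 and 2.20 times NIA2 at 0.5 h. NIA2 thus drew closer to NIR1 in both later libraries.

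Of the 7 genes with the long element upstream, 5 were tested and 3 rose, against 6.71% of all tested genes. NIR1, in which the element was first described, is among the 3. A link between the element and a rise was not tested. BOA (AT5G59570), a transcription factor of the circadian clock, stood at 18.0 and 16.0 RPKM at 0 h and at 42.6 and 60.4 RPKM at 0.5 h (1.53 ± 0.19, limma adjusted p = 0.0068). Its site, at chr5:24003672-24003692 on the minus strand, is antisense to the gene and begins 375 bases before the coding start. CAX2 (AT3G13320), a vacuolar cation/proton exchanger, stood at 12.3 and 12.9 RPKM at 0 h and at 20.0 and 22.9 RPKM at 0.5 h (0.72 ± 0.13, limma adjusted p = 0.020). Its site, at chr3:4314887-4314907 on the plus strand, lies in the sense of the gene, 531 bases before the coding start. Like that of NIR1, it lies within an annotated exon, since the annotated transcript starts 913 bases before the coding start. ACO1 and AT5G45430 did not pass (limma adjusted p = 0.63 and 0.29), and AT1G61060 and GPX4 were under the minimum level for testing. ACO1 had 19 and 123 reads at 0 h and 226 and 29 reads at 0.5 h, so its replicates differed widely. AT5G45430 had a multi-mapped share of 1, so its reads are uncertain. A match describes the sequence and does not show that a factor binds there.

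For the G-box (CACGTG, a palindrome), RFNR2 alone among the 10 genes had a match in the 1000 bases upstream, against 15.1% of all genes. NIR1 and UPM1 had one downstream, against 19.1%. The evening element (AAAATATCT, both strands) was found upstream of 0 of the 10 genes, against 7.26% of all genes, and downstream of UPM1, against 9.54%.

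The gene for the first enzyme on the branch to siroheme rose with NIR1. UPM1 (AT5G40850), a uroporphyrinogen methyltransferase, stood at 49.1 and 70.4 RPKM in the 0 h libraries and at 111 and 136 RPKM in the 0.5 h libraries. The groups did not overlap. The mean went from 59.8 ± 15.03 to 124 ± 17.5 RPKM (SD, n = 2), a log2 difference of 1.05 ± 0.21 (SE; limma adjusted p = 0.024). The call was lost without the 1st 0 h library (0.80, adjusted p = 0.079) and without the 2nd 0.5 h library (0.91, adjusted p = 0.10). AT5G40855, which overlaps UPM1 on the opposite strand, had 1 read in 1 library and 0 in the others. SIRB (AT1G50170), the ferrochelatase that completes siroheme, stood at 29.2 and 27.3 RPKM at 0 h and at 24.2 and 31.6 RPKM at 0.5 h, and its groups overlapped (-0.03 ± 0.16, 95% interval -0.42 to 0.35, limma adjusted p = 0.92). SIR (AT5G04590), sulfite reductase, the other siroheme enzyme of plastids, stood at 52.3 to 59.0 RPKM over the 4 libraries (0.01 ± 0.14, 95% interval -0.33 to 0.34, limma adjusted p = 0.99).

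The genes of the root-type electron path to nitrite reductase rose together with it. RFNR1 (AT4G05390), a root ferredoxin-NADP reductase, stood at 18.3 and 21.9 RPKM at 0 h and at 38.7 and 39.6 RPKM at 0.5 h. Each later library was thus at least 1.77 times either earlier one, while replicates lay within 1.19 times of each other at 0 h. The mean went from 20.1 ± 2.50 to 39.2 ± 0.684 RPKM (SD, n = 2), a log2 difference of 0.93 ± 0.14 (SE; limma adjusted p = 0.012), and without the 1st 0 h library it was 0.81 (adjusted p = 0.057). RFNR2 (AT1G30510), its paralog, stood at 34.6 and 59.4 RPKM at 0 h and at 115.9 and 97.8 RPKM at 0.5 h. Its groups did not overlap either, though its 0 h libraries differed by 1.72 times. Its log2 difference was 1.21 ± 0.25 (SE; limma adjusted p = 0.029). The call of RFNR2 was lost without the 1st 0 h library (0.83, adjusted p = 0.066), without the 1st 0.5 h library (1.09, adjusted p = 0.074) and without the 2nd 0.5 h library (1.33, adjusted p = 0.073).

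RFNR2 was 1.89 and 2.72 times RFNR1 in the 0 h libraries and 2.996 and 2.47 times RFNR1 in the 0.5 h libraries, so the ratios of the groups overlapped. Together the pair stood at 52.9 and 81.3 RPKM at 0 h and at 155 and 137 RPKM at 0.5 h. The leaf-type reductases LFNR1 and LFNR2, which serve photosynthetic electron transport, summed to 1183 and 1164 RPKM at 0 h and to 786 and 1051 RPKM at 0.5 h. Neither leaf-type gene passed the test, and LFNR2 (AT1G20020) gave -0.46 ± 0.20 (95% interval -0.94 to 0.02, limma adjusted p = 0.19).

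FD3 (AT2G27510), the ferredoxin of roots and other non-green tissue, had the highest level of the 10 genes at both times. It stood at 233 and 304 RPKM in the 0 h libraries and at 502 and 500 RPKM in the 0.5 h libraries. The later libraries lay close together and at least 1.64 times above the earlier ones. The log2 difference was 0.91 ± 0.18 (SE; 95% interval 0.48 to 1.34; limma adjusted p = 0.025). The call was lost without the 1st 0 h library (0.72, adjusted p = 0.071), the 1st 0.5 h library (0.91, adjusted p = 0.070) or the 2nd 0.5 h library (0.91, adjusted p = 0.11). FD2 (AT1G60950), the main leaf ferredoxin, stood at 1145 and 1309 RPKM at 0 h and at 1169 and 1466 RPKM at 0.5 h, and its groups overlapped (0.10 ± 0.19, limma adjusted p = 0.78). FD3 amounted to 0.203 and 0.233 of the FD2 level at 0 h and to 0.429 and 0.341 of it at 0.5 h. FD1 (AT1G10960), the minor leaf ferredoxin, stood at 156.8 and 183.2 RPKM at 0 h and at 195.5 and 270.3 RPKM at 0.5 h. Its groups did not overlap, but its change of 0.44 ± 0.20 did not pass (95% interval -0.03 to 0.91, limma adjusted p = 0.20). FD4 had 0 reads in all 4 libraries, and a floor of 3 reads would correspond to 0.288 to 0.379 RPKM there.

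PGL3 (AT5G24400), a plastid 6-phosphogluconolactonase of the oxidative pentose phosphate pathway, was the 1 gene of the 10 that did not rise. It stood at 50.8 and 51.0 RPKM at 0 h and at 47.8 and 51.8 RPKM at 0.5 h. The groups overlapped, and the log2 difference was -0.03 ± 0.13 (SE; 95% interval -0.35 to 0.28; limma adjusted p = 0.90).

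Of 39 further genes of the pathway in 5 lists, 36 were tested, 4 rose, 2 fell and 30 did not pass, with a median of -0.03, which equals that of all tested genes. The lists were drawn up by function, with earlier results of these data known. Molybdenum cofactor synthesis, which supplies the metal cofactor of nitrate reductase, had 0 of 6 genes past the test and a median of -0.01. Its smallest p-values belonged to CNX2 (AT2G31955; 19.2 and 21.6 RPKM at 0 h, 24.8 and 29.8 at 0.5 h; 0.40 ± 0.15, limma adjusted p = 0.14) and CNX5 (AT5G55130; -0.15 ± 0.12, adjusted p = 0.47). Siroheme synthesis and sulfite reductase had 0 of 2. Leaf-type and other ferredoxins and leaf ferredoxin-NADP reductases had 0 of 6 tested genes past the test (7 listed, median -0.05).

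The pentose phosphate pathway outside the 10 genes gave 3 rises and 2 falls among 17 tested genes of 18, with a median of -0.07, and 1 of the falls is not reported here by name. AT5G41670, annotated as a 6-phosphogluconate dehydrogenase family protein, an NADPH-yielding step, rose from 44.9 and 58.5 RPKM to 84.4 and 92.7 RPKM (0.78 ± 0.17, limma adjusted p = 0.032). The other genes of that annotation, AT1G64190 and AT3G02360, did not pass. RSW10 (AT1G71100), a ribose 5-phosphate isomerase, rose from 19.9 and 18.2 RPKM to 28.3 and 38.2 RPKM (0.76 ± 0.17, limma adjusted p = 0.035). RPI2 (AT2G01290), of the same activity, rose by 0.93 ± 0.17 (limma adjusted p = 0.018), but its share of multi-mapped reads was 0.663 and it overlaps AT2G01280, so its reads are uncertain. PGL4 (AT5G24410), a 6-phosphogluconolactonase, fell from 6.79 and 6.17 RPKM to 3.95 and 2.61 RPKM (-0.82 ± 0.19, limma adjusted p = 0.035). PGL5, its neighbour in the annotation, was under the minimum level and had 29 and 31 reads at 0 h and 5 and 5 reads at 0.5 h. Plastid hexose phosphate supply and nitrite transport had 1 rise among 5 tested genes of 6 (median 0.10). This was AT3G47980, an integral membrane HPP family protein, which rose from 10.4 and 12.2 RPKM to 22.0 and 17.3 RPKM (0.74 ± 0.16, limma adjusted p = 0.033). The smallest p-value among the others was that of GPT1 (AT5G54800), which carries glucose 6-phosphate into plastids (-0.18 ± 0.14, limma adjusted p = 0.42). Each of the calls named here was lost in at least 2 of the 4 fits that left out a library, among them the fit without the 1st 0 h library, with adjusted p up to 0.14 to 0.24 over all settings.

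**Figure D2:**
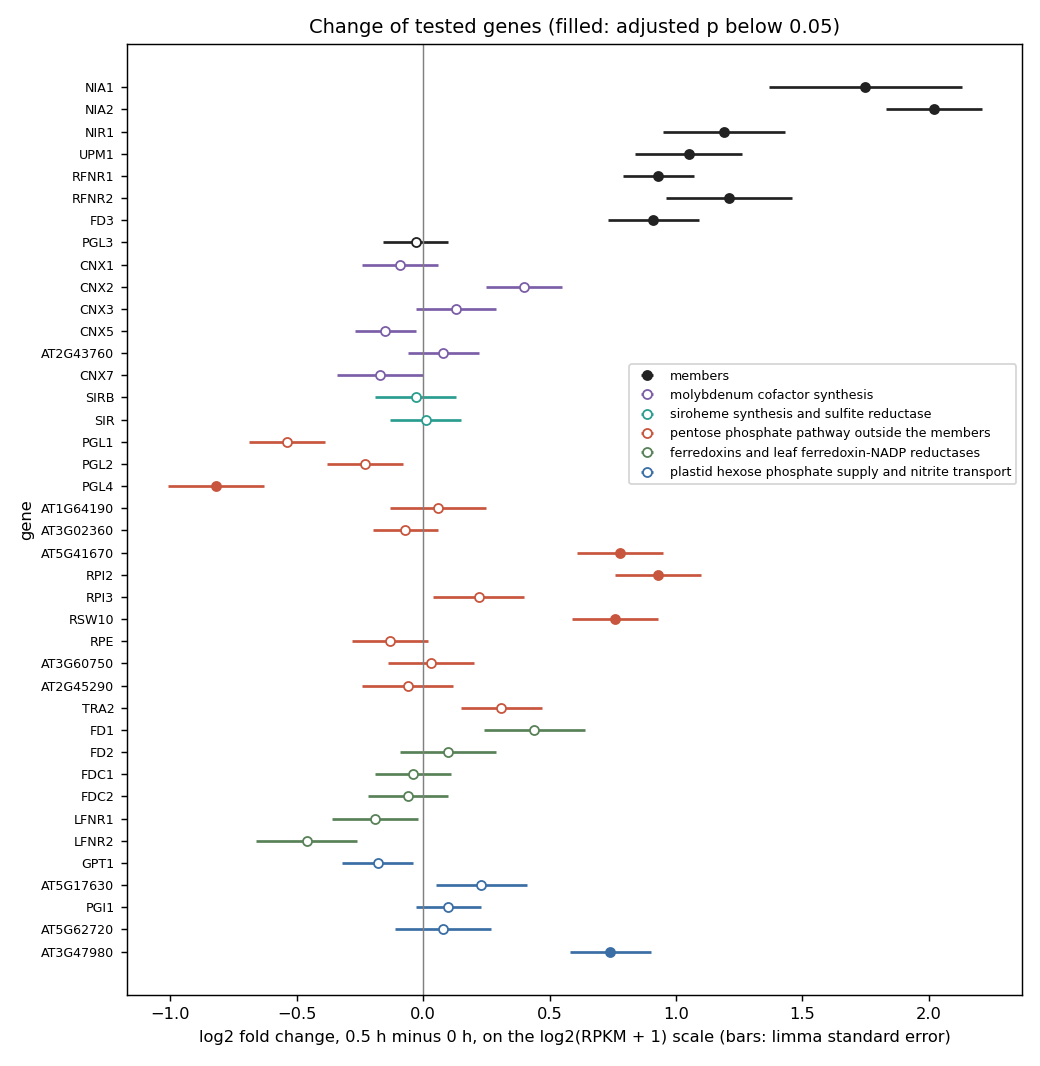
Log2 fold change from 0 h to 0.5 h with limma standard errors for 8 of the 10 genes (black) and for tested genes of the 5 lists (colours), with filled points where the adjusted p was below 0.05. The 8 genes lie between 0.91 and 2.02 except PGL3 at -0.03, and the lists scatter around 0, with RPI2 at 0.93 and PGL4 at -0.82.

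Among the 8 genes, the order of mean levels at 0 h was FD3, NIR1, UPM1, PGL3, RFNR2, NIA2, RFNR1 and NIA1. The neighbours from UPM1 through NIA2 overlapped in their libraries. At 0.5 h the order was FD3, NIR1, NIA2, UPM1, RFNR2, PGL3, RFNR1 and NIA1. Here the neighbours from NIA2 through RFNR2 overlapped. NIA2 thus went from the sixth to the third place and PGL3 from the fourth to the sixth, and FD3 and NIR1 led at both times.

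Both 0.5 h libraries exceeded both 0 h libraries in 9 of the 10 genes, against 27.1% of tested genes. The 0 h libraries also differed among themselves, and this was noted after the values were seen. All 10 genes were higher in the 2nd 0 h library than in the 1st, as were 42.9% of tested genes. Among those of the 10 genes that are described individually and rose, the gap was from 1.19 times (RFNR1) to 2.75 times (NIA1), and PGL3 was at 50.8 and 51.0 RPKM. Summed root markers (11 genes) were also higher in the 2nd 0 h library than in the 1st, at 335 against 196 RPKM. In the 0.5 h libraries the sum was 226 and 208 RPKM. Most of that sum was PYK10, an endoplasmic reticulum body glucosidase of roots, at 158 and 273 RPKM at 0 h and 165 and 166 RPKM at 0.5 h, and without it the sums were 37.9 and 62.2 RPKM at 0 h and 60.8 and 41.7 RPKM at 0.5 h. CASP1, a protein of the endodermal Casparian strip, stood at 7.69 and 15.9 RPKM at 0 h and at 13.1 and 8.64 RPKM at 0.5 h. Not all root markers were higher in the 2nd 0 h library. MYB36 (9.22 and 7.78 RPKM at 0 h) and the tonoplast intrinsic protein gene AT5G47450 (2.27 and 1.93 RPKM) went the other way. ESB1, another root marker, and PYK10 had multi-mapped shares of 0.993 and 0.167, so their part in the sums is uncertain. SHR alone of 9 tested root markers rose (0.78 ± 0.14, limma adjusted p = 0.020), 8 did not pass, and the median was -0.06. Every root marker had at least 1 read in each library. The root marker sums of the 0.5 h libraries lay between those of the 0 h libraries.

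The 9 photosynthetic shoot markers summed to 31434 and 31956 RPKM at 0 h and to 26111 and 26558 RPKM at 0.5 h. Of these LHCA3 and PSAD1, both of photosystem I, fell, 7 did not pass, and the median was -0.26. RBCS1A, the small subunit of Rubisco, stood at 7681 and 7963 RPKM at 0 h and at 7605 and 8092 RPKM at 0.5 h, with overlapping groups. LHCB1.3, a light-harvesting protein, gave -0.26 ± 0.20 (limma adjusted p = 0.44). It had the highest level of the 9, at 15740 and 16000 RPKM at 0 h and at 13550 and 12920 RPKM at 0.5 h. Its multi-mapped share was 0.208, so its large part in the sums is uncertain. In RNA of whole seedlings, fewer cells of a type and less RNA per cell cannot be told apart, and the part of root and shoot content in the changes of the 10 genes was not tested.

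**Figure D3:**
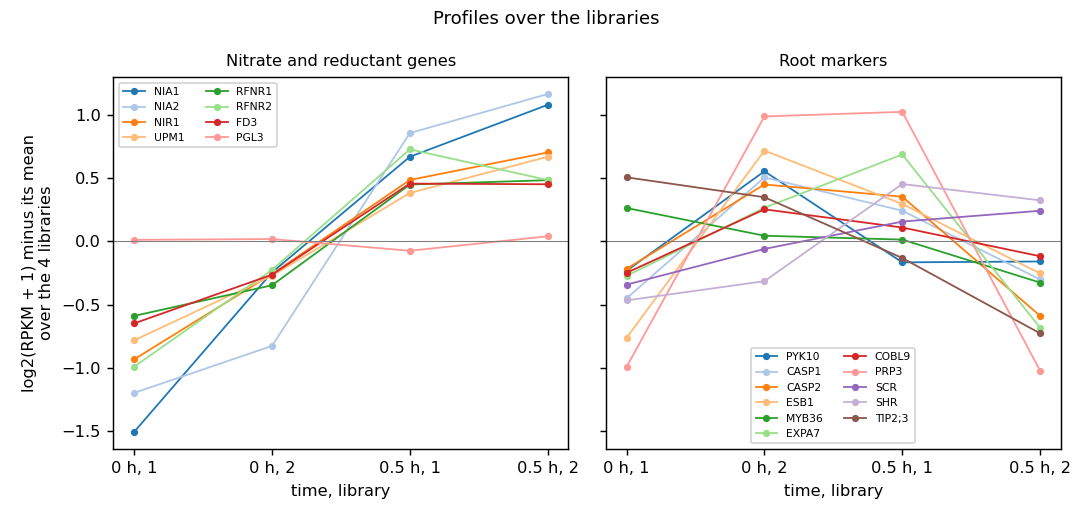
log2(RPKM + 1) of each gene minus its own mean over the 4 libraries, for 8 of the 10 genes (left) and the root markers (right), on one vertical scale, with lines only joining the points of a gene. On the left, all but PGL3 are above 0 in both 0.5 h libraries, and most root markers on the right have their highest value in the 2nd 0 h or the 1st 0.5 h library.

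The mean profile of the 10 genes, each centred on its own mean of log2(RPKM + 1), was -0.82 and -0.31 in the 0 h libraries and 0.51 and 0.62 in the 0.5 h libraries. NIR1 and UPM1 lay nearest to it, at Euclidean distances of 0.146 and 0.150, and NIA1, NIA2 and PGL3 furthest, at 0.835, 0.900 and 1.22. Among 9000 other genes averaging 10 RPKM or more, with a multi-mapped share of at most 0.05, the 5 nearest over the 4 libraries were AT3G08030 (distance 0.0601), AT4G18340 (0.0932), AT1G77400 (0.119), GATL6 (0.146) and AT2G36580 (0.146). The annotation gives a DUF642 protein, a glycosyl hydrolase superfamily protein, an extensin-like protein, a galacturonosyltransferase and a pyruvate kinase family protein for them, in that order. The nearest, AT3G08030, stood at 9.38 and 13.0 RPKM at 0 h and at 24.9 and 26.7 RPKM at 0.5 h. The median distance of the 9000 genes was 1.31, and likeness over 4 libraries is a description only. Each of the 10 genes is itself part of the mean profile, unlike the 9000, so their distances cannot be compared on equal terms.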

How the data were processed

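RNA of whole seedlings was sequenced from 2 libraries at 0 h and 2 at 0.5 h, with groups and replicate numbers taken from the sample titles. A TruSeq RNA kit was used, per the labels. The authors deposited RPKM values for 33602 genes, whose file name says they were scaled by TMM, a trimmed mean of log ratios. The deposited table also gives a gene length and a fraction, the highest share of multi-mapped reads per gene. The submitters' processing notes name TAIR10 and SAMtools without a version. Aligner, counter and use of strand were not given in the sources used here, and overlapping genes on opposite strands cannot be told apart. RPKM times length lay on steps that returned whole reads, within 0.05 read, in 99.992 to 100.0% of genes with no multi-mapped read and in 47.5 to 51.7% of the others. The smallest member total was 283 reads; counting error is not the only error in these values.

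The 18039 genes averaging 1 RPKM or more entered limma 3.58.1 (R 4.3.3), run with its intensity trend on log2(RPKM + 1). This scale makes the changes of low genes look smaller. Group was the only term, with 2 residual and 4.824 prior degrees of freedom, and two-sided p-values were adjusted by Benjamini-Hochberg over all tested genes, with a threshold of 0.05. Python 3.11.15 with matplotlib 3.10.9, scipy 1.17.1, pandas 2.3.3 and numpy 2.4.6 served for tables, motif searches and plots. Names, overlaps and sequences came from the RefSeq TAIR10.1 annotation and genome; the deposited table holds no coordinates.

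The 10 genes and the lists were chosen with earlier results of these data known. Some results, those of 2 of the 10 genes and of 1 pathway gene that meets the naming rule among them, are not reported here one by one. Named by rule, with those exceptions, were the other 8, the 2 tested genes of each of 5 pathway lists with the smallest p and any that passed, the 2 of each marker list with the highest mean, and the 5 genes nearest to the mean profile; the other genes named, among them SHR, LHCA3, PSAD1, FD2, FD4, PGL5, BOA and CAX2, were chosen after their values were seen. Other settings tried were pseudocounts of 0.1 and 5, no minimum or 5 RPKM, scaling by quantiles or by median of ratios, limma robust or without trend, limma-voom on recovered reads, leaving out genes with a multi-mapped share above 0.05, a replicate block, and leaving out each library.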

Additional observations from a re-analysis of the deposited data

How the results depend on the processing

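The 9 rises kept their sign in every setting that tested them, and over the 10 genes and all settings 125 results kept their side of the threshold and 24 lost the call. Without a minimum on RPKM, which brings all 33602 genes into the variance trend and the adjustment, 0 of the 10 genes were called higher (adjusted p from 0.11 for NIA2 to 0.25 for NIA1), 0 genes overall were called higher by limma and 2 lower (2682 and 2803 at an unadjusted p below 0.05, no other tool being run there), and 0 of the other pathway genes were called in either direction. With a minimum of 5 RPKM, 1 pathway gene was called lower, since PGL4 was no longer tested. When 1 library was left out, between 3 and 9 of the 10 genes were called higher, with 3 without the 1st 0 h or the 2nd 0.5 h library, between 489 and 1131 genes overall were higher and between 234 and 787 lower, and between 0 and 2 other pathway genes were higher and between 0 and 2 lower; the lone library of a group was then assumed to vary like the others. With the replicate number as a block, 9 of the 10 genes, 1127 of all genes and 4 other pathway genes were higher. In that fit 834 of all genes were lower. Across the tested genes, deviations of same-numbered libraries from their group means had r = -0.0778. The numbers were therefore not taken as a pairing. The median change of all tested genes was -0.029, and between -0.060 and 0.003 in the alternatives.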
